A study of Mus musculus with 4 samples.

Results

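The 10 genes described here encode enzymes of mitochondrial fatty acid oxidation: the carnitine palmitoyltransferases Cpt1a and Cpt2, the acyl-CoA dehydrogenases Acadm, Acadl and Acadvl, the trifunctional protein subunits Hadha and Hadhb, and the electron transfer flavoprotein genes Etfa, Etfb and Etfdh. They were taken by symbol from the 49997 genes of the count tables, and all 10 were found. RNA was sequenced from explants of the mouse aorta-gonad-mesonephros region (AGM), the embryonic site where definitive blood stem cells first emerge, in 4 bulk libraries. The embryos were C57BL/6J, and the explants were kept for 48 hours at the gas-liquid interface in a medium containing hydrocortisone. The untreated group (2 libraries) had no further addition, and the CCCP group (2 libraries) received 5 µM CCCP, a protonophore that dissipates the proton gradient across the inner mitochondrial membrane. The labels name stages E10.5 and E11.5 in one place and E10.5 alone in another. They also give embryonic blood stem cells as the cell type, whereas the extraction text describes RNA from explants. No label says whether replicates came from separate embryos or cultures, so p-values measure the spread between these libraries, which may be technical.

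Fatty acids enter the mitochondrial matrix as carnitine esters. The outer membrane enzyme CPT1 makes the ester and is inhibited by malonyl-CoA, and CPT2 on the inner membrane turns the ester back into acyl-CoA. Each round of beta-oxidation then begins with an acyl-CoA dehydrogenase matched to the chain length, whose electrons pass through the electron transfer flavoprotein (ETF) and its dehydrogenase to ubiquinone. For long chains the trifunctional protein carries out the remaining steps of the round. Many of these genes are known targets of the nuclear receptors of the PPAR and ERR families and of their coactivator PGC-1, and liver, heart and muscle express them strongly.

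The libraries held 37360968 to 48827826 counted reads, replicate 1 being the deeper one in each group. Markers of several cell types were present, as in a whole explant. Of the 10 blood markers examined none was at 0 in all libraries, and Kit, the stem cell factor receptor, lay between 47.6 and 63.2 CPM (the count scaled to library size). The summed level of the 10 blood markers was 124 and 120 CPM untreated and 87.4 and 110 CPM with CCCP. Endothelial markers summed to 455 to 584 CPM and mesenchymal markers to 3145 to 5487 CPM over the 4 libraries. In such bulk RNA, fewer cells of a type and less RNA per cell cannot be told apart.

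None of the 10 genes reached an adjusted p under 0.05 when CCCP explants were compared with untreated ones (edgeR's quasi-likelihood test, Benjamini-Hochberg adjustment over 19837 genes). Over all genes tested the share called was 0%. Of the 10 genes, 9 had a higher mean level in CCCP and 1, Acadm, a lower one. Their median log2 fold change was 0.19, against -0.01 over all genes tested. For 6 of the 10, each CCCP library exceeded each untreated library (Cpt2, Acadvl, Hadha, Etfa, Etfb and Etfdh), where the share over all genes was 24%. Both lay below for 1 of the 10, against 24.8% of all genes. At an unadjusted p under 0.05 there was 1 gene among the 10, Etfb, which was higher, beside 5.45% of all genes that were higher and 9.16% that were lower at that level. DESeq2 called 2.99% of all genes and none of the 10. All 10 passed the filter on low counts, with 891 to 8511 counts per library.

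**Figure D1:**
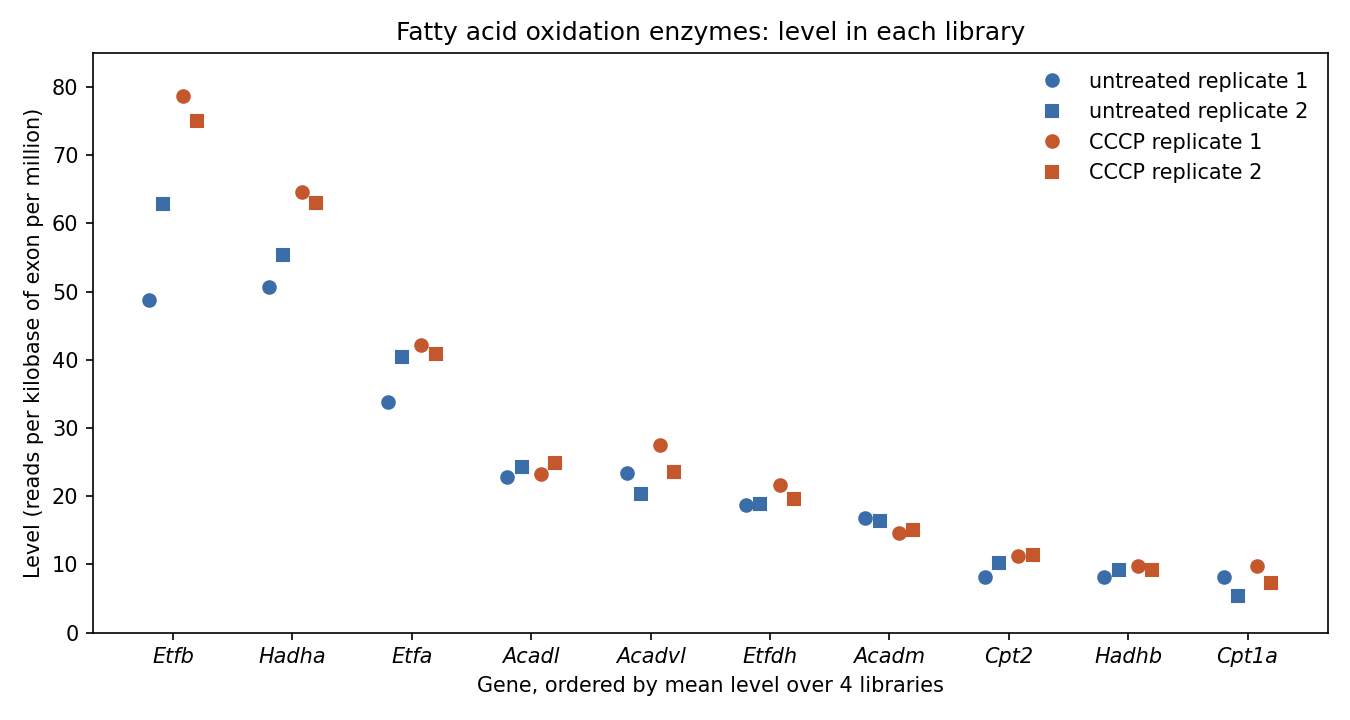
Level of each gene in each library, in RPKM (scaled reads per kilobase of exon), with genes ordered by their mean over the 4 libraries. Circles are replicate 1 and squares replicate 2. With the exon lengths used here Etfb and Hadha are the 2 highest. Their untreated and CCCP points do not overlap, whereas the points of Acadl and Hadhb do.

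Levels of different genes were compared per length, as CPM per kilobase of exon (RPKM). On that scale Etfb had the highest mean over the 4 libraries, at 66.4, followed by Hadha at 58.4, Etfa at 39.3, Acadl at 23.8, Acadvl at 23.7, Etfdh at 19.7, Acadm at 15.7, Cpt2 at 10.3, Hadhb at 9.08 and Cpt1a at 7.63. With the exon lengths used here, Etfa, Etfdh and Acadm kept ranks 3, 6 and 7 in every library. The order of Etfb and Hadha held in 3 of 4 libraries, and Acadl and Acadvl exchanged places between replicates, so neither pair differed beyond its spread. The ranges of Acadvl and Etfdh overlapped too, although Acadvl was the higher in all 4 libraries, and so did those of Cpt2, Hadhb and Cpt1a. The order depends on the exon model. With the lengths of principal GENCODE transcripts Etfa, at a mean of 41.3 RPKM, passed Hadha at 39.5. Hadhb, at 23.3, then lay above Etfdh at 18.9 and Acadm at 15.8. The summed level of the 10 genes was 239 and 263 RPKM untreated and 303 and 290 RPKM with CCCP. Untreated replicate 1 was the lowest library for 7 of the 10 genes, and CCCP replicate 1 the highest for 7.

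The 2 enzymes of the carnitine step were among the 3 genes with the lowest mean level per length, and they differed in how closely replicates matched. Cpt1a (chromosome 19, 3322326 to 3385735 on mm10), the malonyl-CoA-sensitive entry enzyme expressed in liver and most tissues, stood at 8.18 and 5.39 RPKM untreated and 9.72 and 7.22 RPKM with CCCP (replicates 1 and 2). The groups overlapped, and in each group replicate 1 was the higher library. The log2 fold change was 0.32 (SE 0.241, n = 2 in each group, edgeR adjusted p 0.558). Without untreated replicate 2 that value was 0.084, and without untreated replicate 1 it was 0.66. Cpt2 (chromosome 4, 107903982 to 107923589), which completes the transfer in the matrix, stood at 8.18 and 10.1 RPKM untreated and 11.3 and 11.4 RPKM with CCCP. Both CCCP libraries were above both untreated libraries, with a log2 fold change of 0.31 (SE 0.164, n = 2, edgeR adjusted p 0.425). Without untreated replicate 1 the value was 0.17, and without untreated replicate 2 it was 0.50. The ratio of Cpt1a to Cpt2 per length ranged from 0.532 in untreated replicate 2 to 1.0008 in untreated replicate 1, with both CCCP libraries between them. The other carnitine genes of the mitochondrial list were Slc25a20, the carnitine-acylcarnitine carrier, which had a log2 fold change of 0.29 with groups that did not overlap (adjusted p 0.405), Crat, the carnitine acetyltransferase, at 0.20 with overlapping groups (adjusted p 0.597), and the CPT1 isoforms. The muscle isoform Cpt1b had 1 to 6 counts per library and was not tested. The neuronal isoform Cpt1c stood at -0.13 (adjusted p 0.786).

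The 3 acyl-CoA dehydrogenases did not share a direction. Acadm (chromosome 3, 153922353 to 153944643), the medium-chain enzyme, was the one gene of the 10 whose CCCP libraries both lay below the untreated ones. It stood at 16.8 and 16.4 RPKM untreated and 14.6 and 15 RPKM with CCCP, a log2 fold change of -0.16 (SE 0.124, n = 2, edgeR adjusted p 0.56). Its replicates were close, with SDs of 0.295 and 0.284 RPKM around means of 16.6 and 14.8. Acadl (chromosome 1, 66830839 to 66863309), the long-chain enzyme, stood at 22.8 and 24.3 RPKM untreated and 23.3 and 24.9 RPKM with CCCP. The groups interleaved, and the log2 fold change was 0.03 (SE 0.118, adjusted p 0.917). That sign turned under 5 of 13 alternatives, between -0.093 and -0.0049, so no direction can be given for Acadl. Acadvl (chromosome 11, 70010183 to 70015428), the very-long-chain enzyme of the inner membrane, stood at 23.3 and 20.3 RPKM untreated and 27.5 and 23.6 RPKM with CCCP. The CCCP libraries were above the untreated ones, CCCP replicate 2 only just, and the log2 fold change was 0.23 (SE 0.14, n = 2, edgeR adjusted p 0.484). Leaving out CCCP replicate 1 gave 0.12, and leaving out untreated replicate 1 or CCCP replicate 2 gave 0.34. The ratio of Acadvl to Acadm was 1.39 and 1.24 untreated and 1.88 and 1.57 with CCCP, and the ratio of Acadm to Acadl was 0.737 and 0.673 untreated and 0.627 and 0.603 with CCCP. In both ratios the groups did not overlap, and with 2 libraries against 2 an exact two-sided permutation test cannot go below 0.333. Acadl and Acadvl are also annotated on an alternate contig each, which doubles the exon length in the tables, so lengths on the chromosome alone (1948 and 2188 bases) were used. The 198 genes placed on alternate contigs alone had 0 counts in all 4 libraries.

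Hadha and Hadhb, the alpha and beta subunits of the trifunctional protein, are divergent neighbours on chromosome 5. Hadha (30119423 to 30154980, minus strand) carries the hydratase and hydroxyacyl-CoA dehydrogenase activities, and Hadhb (30155253 to 30184593, plus strand) the thiolase. Only 272 bases lie between the 2 starts. The stretch is printed because both genes start from it: read on the plus strand, Hadhb starts just after its last base, and Hadha is transcribed leftward from just before its first base (chr5:30154981-30155252, RefSeq table of build GRCm38.p6).
Hadha-Hadhb stretch: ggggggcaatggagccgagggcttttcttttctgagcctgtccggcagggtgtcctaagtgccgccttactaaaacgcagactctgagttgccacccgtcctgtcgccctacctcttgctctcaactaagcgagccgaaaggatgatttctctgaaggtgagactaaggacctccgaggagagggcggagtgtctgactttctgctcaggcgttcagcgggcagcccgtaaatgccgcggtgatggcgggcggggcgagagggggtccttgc

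Hadha was the most counted of the 10 genes, at 137 and 150 CPM untreated and 175 and 171 CPM with CCCP, which corresponds to 50.6, 55.3, 64.6 and 63.0 RPKM. The groups did not overlap and the 2 CCCP libraries were close. The log2 fold change was 0.27 (SE 0.114, n = 2, edgeR adjusted p 0.352), and it stayed between 0.19 and 0.37 over 13 alternatives, with adjusted p-values of 0.132 to 0.896. Hadhb stood at 8.21 and 9.25 RPKM untreated and 9.71 and 9.16 RPKM with CCCP. Here the groups overlapped, with a log2 fold change of 0.11 (SE 0.124, n = 2, edgeR adjusted p 0.69). That value became 0.038 when untreated replicate 1 was left out, 0.075 when CCCP replicate 1 was, and 0.23 when untreated replicate 2 was. The ratio of Hadha to Hadhb per length was 6.16 and 5.98 untreated and 6.65 and 6.88 with CCCP. It was higher in both CCCP libraries, and no test of this ratio was run. The gap between the fold changes of the 2 genes was not kept once a trend over all genes was removed. With a trend with exon length removed, the log2 fold changes were 0.195 for Hadha and 0.202 for Hadhb. With a trend with GC content removed, they were 0.203 and 0.238. The size of the ratio of Hadha to Hadhb depends on the exon model. The exons of Hadhb in the deposited tables sum to 5266 bases, whereas its principal GENCODE transcript has 2048 bases, and for Hadha the lengths are 2716 and 4017 bases. With the GENCODE lengths the mean levels were 39.5 RPKM for Hadha and 23.3 RPKM for Hadhb.

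The largest log2 fold change of the family in the fit reported was that of an ETF gene, Etfb, though not under every alternative. Etfb (chromosome 7, 43444072 to 43457800), the beta subunit of the flavoprotein, stood at 48.8 and 62.9 RPKM untreated and 78.7 and 75.1 RPKM with CCCP. The CCCP libraries lay above the untreated ones, which were themselves further apart than the CCCP pair. The level was 1.38-fold higher, a log2 fold change of 0.46 (SE 0.152, n = 2, unadjusted p 0.0222, edgeR adjusted p 0.278). Without untreated replicate 1 the log2 value of Etfb was 0.30, under the 0.66 of Cpt1a. Without untreated replicate 2 that of Etfb was 0.69. Etfa (chromosome 9, 55454436 to 55512243), the alpha subunit, stood at 33.8 and 40.4 RPKM untreated and 42.2 and 40.8 RPKM with CCCP. Untreated replicate 2 nearly reached the CCCP libraries, and the log2 fold change was 0.16 (SE 0.132, adjusted p 0.588), or 0.047 without untreated replicate 1 and 0.33 without untreated replicate 2. The 2 subunits form a heterodimer, and the ratio of Etfa to Etfb per length was 0.692 and 0.643 untreated against 0.535 and 0.544 with CCCP, again without overlap and without a test. With a GC trend over all genes removed, the log2 fold changes were nearly equal, at 0.302 for Etfa and 0.306 for Etfb. With the length trend removed they were 0.0097 and 0.271. Etfdh (chromosome 3, 79603788 to 79628767), the inner membrane enzyme that hands the electrons to ubiquinone, stood at 18.7 and 18.8 RPKM untreated and 21.7 and 19.6 RPKM with CCCP. Its groups did not overlap, with a log2 fold change of 0.14 (SE 0.119, n = 2, edgeR adjusted p 0.611). Without CCCP replicate 1 that value was 0.070, and without CCCP replicate 2 it was 0.22. The 3′ end of Etfdh overlaps Ppid on the opposite strand by 23 bases, and the start of Etfb overlaps Cldnd2 on the same strand by 59 bases. Reads touching both genes were not counted, and Cldnd2 itself had 4 to 9 counts per library.

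**Figure D2:**
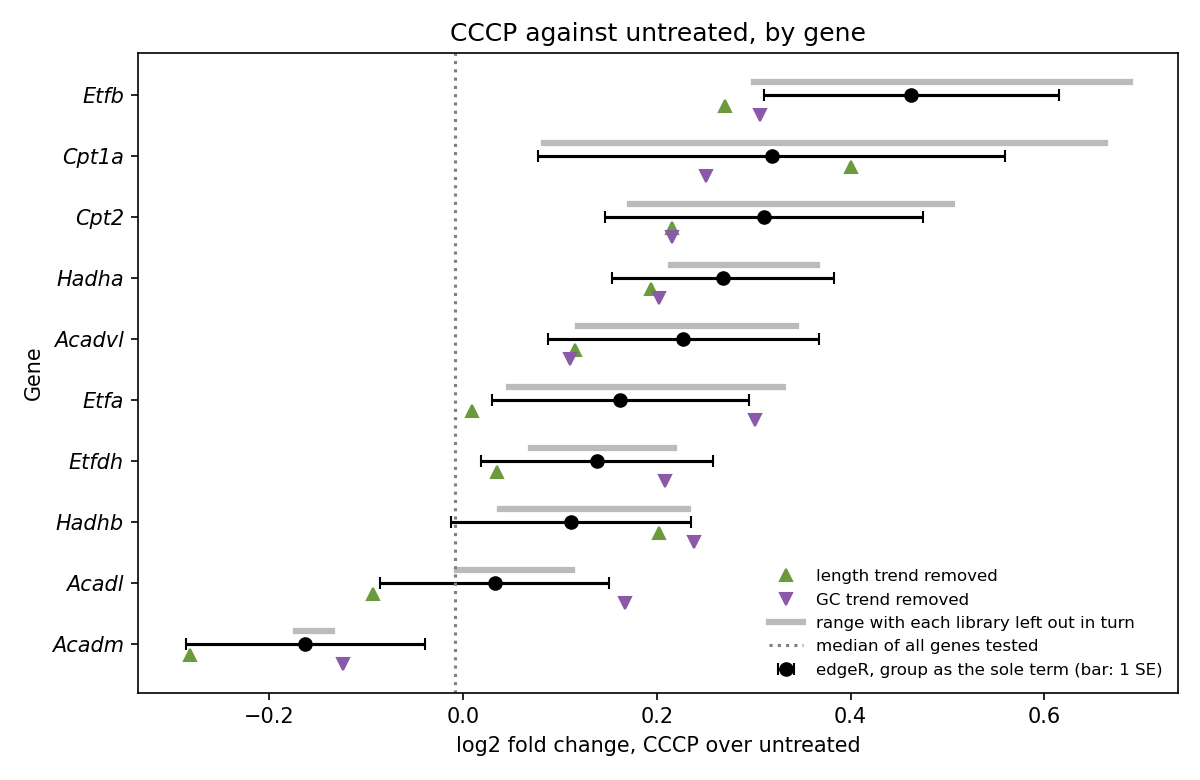
Log2 fold change of each gene, CCCP over untreated, with 1 standard error from edgeR (n = 2 libraries per group), the range when each library is left out in turn, and the values after a trend with exon length or GC content was removed from each library. In the fit with the group as the sole term Etfb has the highest value at 0.46 and Acadm the lowest at -0.16. The dotted line marks the median of all genes tested at -0.01.

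Fold changes in these libraries went with gene properties across all genes tested. Spearman's rho with exon length was -0.361 and with GC content 0.386, both across genes, which are not independent replicates. Etfb has the shortest exons of the 10 (904 bases) and the highest GC content (57.1%). Once the length trend was removed its log2 fold change was 0.27, and once the GC trend was removed 0.31. Etfa (1464 bases, GC 45.0%) went to 0.0097 with the length trend removed and to 0.30 with the GC trend removed. Acadvl went to 0.12 and 0.11, and Etfdh to 0.035 and 0.21. Cpt1a (4943 bases) went to 0.40 with the length trend removed, above Etfb, and to 0.25 with the GC trend removed. Acadm stayed below 0 under both, at -0.28 and -0.12. The median of the 10 genes was 0.15 with the length trend removed and 0.21 with the GC trend removed, against 0.017 and 0.0081 over all genes in each fit. With the length trend removed 8 of the 10 were above 0 and 2 below, and with the GC trend removed 9 and 1. None of the 10 had an unadjusted p under 0.05 (edgeR) in either fit.

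Bases before the RefSeq start were searched on both strands for the nuclear receptor half-site AGGTCA, the letters recognised in part by PPAR and ERR factors, and for GCATGCGC, the core of the motif of NRF1, a regulator of nuclear genes for mitochondria. Over 32536 distinct windows of 250 bases before RefSeq starts, 14.04% held the half-site and 2.27% the NRF1 core. Of the 10 genes, 3 held the half-site (Cpt1a, Acadm and Acadvl) and 3 the NRF1 core (Acadm, Etfa and Etfdh). Acadm held both, the half-site being 249 to 244 bases before the start and preceded on its own strand by the A of the longer form AAGGTCA, which 4.09% of all windows held. The other motifs searched were the CCAAT box, held by 4 of the 10 and 33.8% of all windows, and the GC box GGGCGG, held by 5 of the 10 and 33.0%. The RefSeq start used for Cpt1a (3323301) lies inside its span in the count tables, so its window does too. Neither the half-site nor the NRF1 core is in the stretch between Hadha and Hadhb printed above. A match is a description of the letters and not a binding site. The windows of the 3 genes with the NRF1 core are printed with both motifs in capitals. With CCCP the mean of Acadm was lower and those of Etfa and Etfdh were higher, but none of the 3 was called. With the length trend removed, the log2 fold changes of Etfa and Etfdh were 0.0097 and 0.035. In Etfdh the matches on the 2 strands overlap and read as 1 run. The windows are chr3:153944644-153944893 for Acadm, chr9:55512244-55512493 for Etfa and chr3:79628768-79629017 for Etfdh, all on the minus strand of GRCm38.p6 and written 5′ to 3′ toward the start.
Acadm: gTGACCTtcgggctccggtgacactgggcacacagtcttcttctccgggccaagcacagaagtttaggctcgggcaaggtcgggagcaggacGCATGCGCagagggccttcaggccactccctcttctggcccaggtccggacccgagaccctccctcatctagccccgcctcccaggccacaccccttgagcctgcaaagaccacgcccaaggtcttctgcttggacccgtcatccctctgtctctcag
Etfa: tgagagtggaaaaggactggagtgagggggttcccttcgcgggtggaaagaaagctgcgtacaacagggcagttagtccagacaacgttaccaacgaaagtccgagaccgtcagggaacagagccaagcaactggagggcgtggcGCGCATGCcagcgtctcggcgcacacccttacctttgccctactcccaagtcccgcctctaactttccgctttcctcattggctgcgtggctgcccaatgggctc
Etfdh: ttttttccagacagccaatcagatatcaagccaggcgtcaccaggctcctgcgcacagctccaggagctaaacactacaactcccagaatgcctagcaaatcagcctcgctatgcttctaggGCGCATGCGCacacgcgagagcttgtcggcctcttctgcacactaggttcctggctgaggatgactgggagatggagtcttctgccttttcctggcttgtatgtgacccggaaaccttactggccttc

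The rest of the mitochondrial pathway was read from a list of 20 further genes, of which 19 were tested and none was called. Of the 19, 15 were higher in CCCP and 4 lower. Both CCCP libraries lay above both untreated ones for 12 and below for 2, beside 24% and 24.8% of all genes, and the median log2 fold change was 0.26. These shares of all genes take no account of gene properties. Across genes, fold changes fell with exon length (Spearman's rho -0.36) and rose with GC content (0.39). The part of length or GC content in the counts and median of this list was not tested, nor in those of the lists that follow. Over all genes tested, 9751 were higher and 10086 lower. Hadh, the short-chain hydroxyacyl-CoA dehydrogenase, stood at 68.8 and 76.0 CPM untreated and 94.4 and 91.0 CPM with CCCP (log2 fold change 0.36, SE 0.116, adjusted p 0.277). Eci1, an enoyl-CoA isomerase needed for unsaturated chains, stood at 17.6 and 19.1 CPM untreated and 24.5 and 24.5 CPM with CCCP (0.42, SE 0.148, adjusted p 0.303). In both genes the groups did not overlap, and the adjusted p missed the threshold. Acadsb, the dehydrogenase for short branched chains, lay on the other side, at 59.0 and 53.4 CPM untreated and 45.6 and 48.4 CPM with CCCP (-0.26, SE 0.12, adjusted p 0.38). Etfrf1, a regulator of ETF, also had both CCCP libraries below the untreated ones, at a log2 fold change of -0.22 (adjusted p 0.559). Among 10 dehydrogenases that feed ETF from fatty acids, amino acids or choline, 3 of which are also in the mitochondrial list, 6 were higher and 4 lower, with a median of 0.07. Their values ran from -2.86, at a gene of low counts, to 0.40. Acads, the short-chain enzyme, stood at 29.7 and 38.1 CPM untreated and 40.8 and 48.8 CPM with CCCP (0.40, adjusted p 0.352). Ivd, of leucine breakdown, had a log2 fold change of 0.23 (adjusted p 0.408). Ketone body genes were higher in 6 of 7, among them Bdh1, a hydroxybutyrate dehydrogenase (0.43, adjusted p 0.347).

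**Figure D3:**
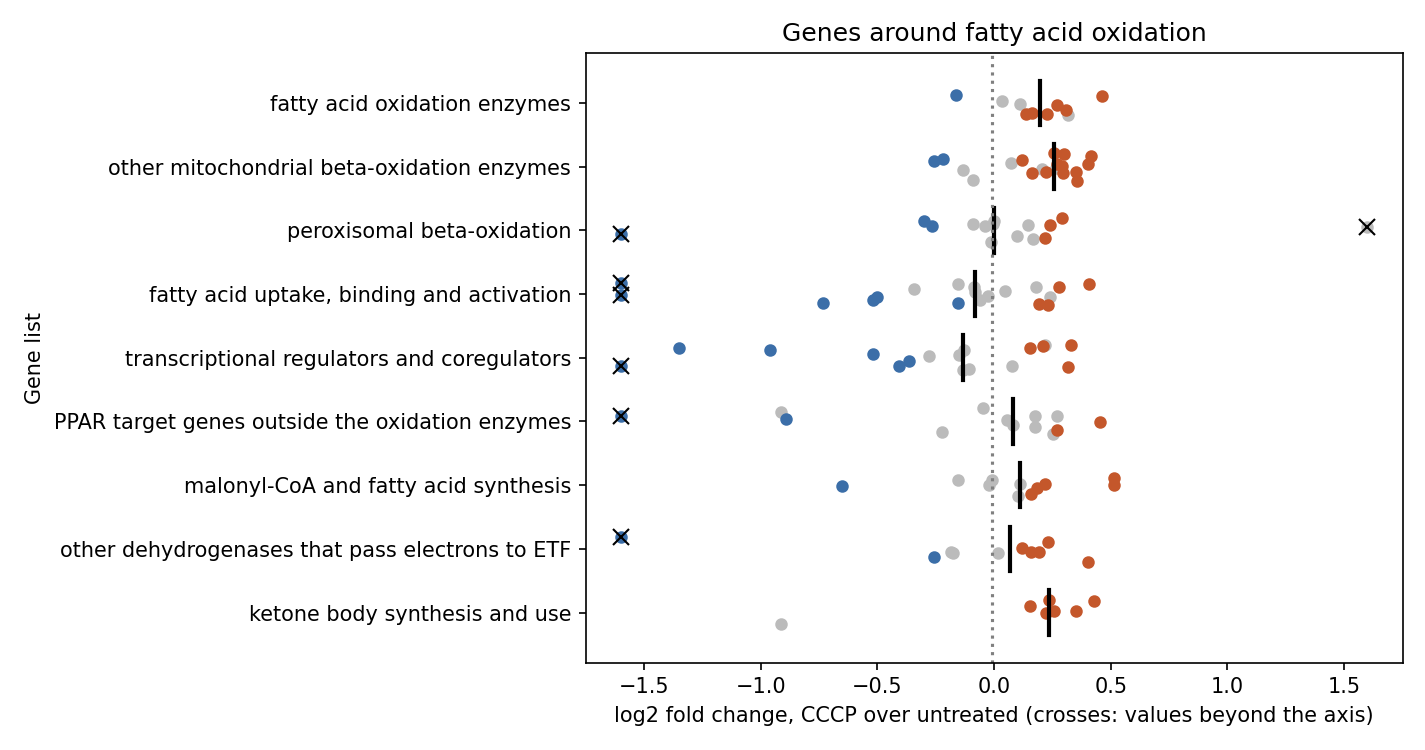
Log2 fold change, CCCP over untreated, of each gene tested in the lists around fatty acid oxidation. Orange points have both CCCP libraries above both untreated ones, blue points below, and grey points overlap. Black bars are list medians, 0.19 for the 10 enzymes and 0.26 for the other mitochondrial enzymes, and crosses mark values beyond the axis.

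The remaining lists of fatty acid metabolism were mixed. Of 15 peroxisomal beta-oxidation genes 7 were higher and 8 lower, with a median of -0.0013 and none called. Their log2 fold changes ran from -3.13 to 1.61, with both ends at genes of low counts. Hsd17b4, the peroxisomal multifunctional enzyme, stood at 89.6 and 99.1 CPM untreated and 118 and 113 CPM with CCCP (0.29, adjusted p 0.335). Abcd2, a peroxisomal fatty acid transporter, stood at -0.30 (adjusted p 0.458) and the bifunctional enzyme Ehhadh at -0.26 (adjusted p 0.63). Of 19 genes tested for uptake, binding and activation of fatty acids, 7 were higher and 12 lower, with a median of -0.08. Values there ran from -8.38, at a gene with 0 counts in both CCCP libraries, to 0.41. Slc27a4, a fatty acid transport protein, stood at 49.0 and 47.2 CPM untreated and 68.5 and 58.9 CPM with CCCP (0.41, adjusted p 0.272), and Dbi, the acyl-CoA binding protein, at 0.28 (adjusted p 0.363). Acsl4, an acyl-CoA synthetase that prefers polyunsaturated chains, stood at 42.8 and 47.0 CPM untreated and 29.4 and 34.0 CPM with CCCP (-0.50, adjusted p 0.24). Slc27a2, a transporter and very-long-chain synthetase abundant in liver, stood at 6.17 and 3.48 CPM untreated and 0.989 and 0.634 CPM with CCCP (-2.56, adjusted p 0.149). In malonyl-CoA and fatty acid synthesis, 7 of 11 genes tested were higher and the median was 0.11. Mlycd, which degrades malonyl-CoA, stood at 11.8 and 9.47 CPM untreated and 14.4 and 16.1 CPM with CCCP (0.52, adjusted p 0.327). Mcat, of mitochondrial fatty acid synthesis, was at 0.51 (adjusted p 0.296), and the elongase Elovl6 at -0.65 (adjusted p 0.17).

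The regulators of the pathway were split between both directions. Of 17 tested, 6 were higher and 11 lower, with a median of -0.13 and none called. Fold changes fell with exon length over all genes tested, and the part of length in this median was not tested. Ppara, the PPAR of liver and heart, was low, at 3.42 and 2.25 CPM untreated and 3.11 and 1.54 CPM with CCCP (-0.28, adjusted p 0.792), with replicate 1 above replicate 2 in each group. Pparg, the PPAR of fat cells, was under 1 CPM in every library. Ppard, the broadly expressed PPAR, was the most abundant of the 3 in CPM, at 40.0 and 36.0 untreated and 45.3 and 42.7 with CCCP (0.21, adjusted p 0.471). Ppargc1a, which encodes PGC-1 alpha, stood at 6.83 and 5.99 CPM untreated and 3.94 and 5.02 CPM with CCCP, so that its groups lay the opposite way from Ppard (-0.52, SE 0.256, adjusted p 0.399). Esrra, the orphan receptor ERR alpha, was at 21.6 and 25.6 CPM untreated and 25.3 and 29.5 CPM with CCCP, with overlapping groups (0.22, adjusted p 0.559). Its relative Esrrg stood at 18.9 and 15.3 CPM untreated and 8.98 and 8.60 CPM with CCCP (-0.96, SE 0.195, adjusted p 0.175). Rxrb, a partner of the PPARs, stood at 81.3 and 81.6 CPM untreated and 102 and 101 CPM with CCCP (0.32, adjusted p 0.287). Of 13 PPAR target genes tested outside the oxidation enzymes, 8 were higher and 5 lower, with a median of 0.08. Plin2, the lipid droplet coat protein, stood at 82.7 and 84.9 CPM untreated and 115 and 114 CPM with CCCP (0.45, SE 0.107, adjusted p 0.206), and Acot1, an acyl-CoA thioesterase, was at 0.27 (adjusted p 0.49). Txnip, the thioredoxin-interacting protein, stood at 26.4 and 45.2 CPM untreated and 21.9 and 16.5 CPM with CCCP (-0.89, adjusted p 0.272).

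Liver is a tissue rich in these enzymes, and liver markers were lower in the CCCP libraries. The 13 hepatic markers had both CCCP libraries below both untreated ones in 13 of 13, beside 24.8% of all genes tested, with a summed level of 1830 and 1045 CPM untreated and 53.6 and 112 CPM with CCCP, and none of them was at 0 in all libraries. None was called by edgeR (smallest adjusted p 0.133). Alb, the albumin gene, stood at 376 and 151 CPM untreated and 0.165 and 11.1 CPM with CCCP, and Afp, alpha-fetoprotein, at 860 and 577 CPM untreated and 1.69 and 44.9 CPM with CCCP. Apob, of lipoprotein particles, stood at 83.1 and 40.3 CPM untreated and 0.206 and 3.28 CPM with CCCP. The hepatic regulator Hnf4a, in both the marker and the regulator list, stood at 8.97 and 8.32 CPM untreated and 2.45 and 1.82 CPM with CCCP (-2.01, adjusted p 0.144), and Creb3l3, a liver factor in the PPAR target list, at 2.30 and 1.47 CPM untreated and 0.515 and 0.579 CPM with CCCP (-1.79, adjusted p 0.216). The part of hepatic RNA in the values of the 10 enzymes, Slc27a2, Hnf4a and Creb3l3 was not tested. Ptprc, the leukocyte antigen CD45, stood at 6.85 and 6.82 CPM untreated and 3.65 and 3.39 CPM with CCCP. Of 9 blood markers tested it was the 1 with both CCCP libraries below, 2 (Ly6a and Spi1, at log2 fold changes of 3.40 and 0.42) had both above, and 6 overlapped. Ly6a had 2 counts in each untreated library, under the floor of 3 counts, and 22 and 21 with CCCP. The size of its fold change is therefore poorly determined (edgeR adjusted p 0.195, and 0.472 for Spi1). Muscle markers summed to 367 to 560 CPM with overlapping groups, but single markers differed. Of 9 muscle markers tested, 1 had both CCCP libraries above both untreated ones, 2 had both below and 6 overlapped, beside 24% above and 24.8% below over all genes. Their log2 fold changes ran from -1.21 to 0.95, and none was called by edgeR. Adipocyte markers summed to 0.662 to 1.20 CPM, with Cidec and Lep at 0 in all libraries.

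Genes with a profile most like the mean of the 10 enzymes were sought among 5007 genes of at least 50 CPM outside the family, by the Euclidean distance between log2 CPM values centred over the 4 libraries. The mean profile of the enzymes was -0.12 and -0.07 untreated and 0.14 and 0.05 with CCCP. The nearest genes were Brd2 (distance 0.0192), Kctd15 (0.0197), Csnk1d (0.0211), Grb2 (0.0268) and Nap1l4 (0.0282). With 4 libraries this is a description of small differences and carries no test.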

How the data were processed

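Poly(A) RNA of 4 explant libraries was analysed. The deposited tables give whole-number read counts for each gene. They were produced by featureCounts 2.0.3 from exons of the mm10 RefSeq annotation, per the file headers. The headers show no strand, fragment, multi-mapping or multi-overlap option, although the labels describe a directional library. HISAT2, SAMtools, FastQC and Subread are named in the submitters' processing notes. Total counts were 48216849 and 37360968 (untreated) and 48827826 and 37579087 (CCCP), so that 3 counts, the floor of detection, correspond to 0.0614 to 0.0803 CPM before scaling. The floor covers counting error only.

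The comparison was fitted with edgeR 4.0.16 (glmQLFit, glmQLFTest) in R 4.3.3, with TMM scaling, filterByExpr, the group as the sole term, two-sided, over all 4 libraries. SEs are the log2 fold change divided by the square root of F. CPM values are TMM-scaled, and RPKM divides them by exon length on the chromosome. Groups came from sample titles. The 10 genes, the lists and the motifs were chosen with earlier results of these data known. Named genes are the 10 enzymes, up to 2 per direction and list with the smallest p among genes of at least 1 CPM whose groups did not overlap, Ppara, Ppard, Pparg, Ppargc1a, Esrra, Alb, Afp, Apob, Ptprc and Kit. Slc25a20, Crat, Cpt1b, Cpt1c, Ly6a and Spi1 were added after their values were seen. Some genes that the rule names are not reported here. DESeq2 1.42.0, other scalings, no filter, left-out libraries, a replicate block and length or GC trends (lowess span 0.3) were alternatives. GC content and transcript lengths came from GENCODE M21. It was known for 90.4% of genes tested. All 10 genes had an entry in the RefSeq promoter table, and for 9 of them its start was that of the count tables.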

Additional observations from a re-analysis of the deposited data

How the results depend on the processing

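The number of the 10 enzymes called at an adjusted p under 0.05 was 0 in edgeR with DESeq2 size factors, with no scaling beyond total counts, without a filter, in DESeq2, with the length or the GC trend removed and with each library left out in turn. The count over all genes was 594 in DESeq2 (59 higher, 535 lower) and 1107 without the filter (217 higher, 890 lower, of 32261 genes tested), against 0 in the fit reported, where 2899 genes had an unadjusted p under 0.05. With a library left out it ranged from 10 to 46. The cause was not tested.

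With the replicate block the count was 2118 genes (754 higher, 1364 lower; 10.7% of those tested) and 1 of the 10 enzymes, Etfb, at 0.47 (adjusted p 0.0289). With the replicate block and the length trend removed there were 1561 genes (753 higher, 808 lower; 7.87%) and 1 enzyme, Cpt1a, at 0.41 (adjusted p 0.0362). With the replicate block and the GC trend removed there were 585 genes (159 higher, 426 lower; 3.26%) and 0 enzymes. Same-numbered libraries deviated together (correlation 0.36), but the labels do not say what the numbers stand for and there are 2 pairs, so the samples share only a number. The GC alternatives were chosen after seeing the data.

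The median of the 10 enzymes lay between 0.11 (without CCCP replicate 1) and 0.26 with a library left out, and between 0.14 and 0.22 in the other alternatives. Among 130 single-gene values, 123 kept direction and side of the threshold, 2 passed it, and 5, all of Acadl, changed sign: -0.025 with no scaling beyond total counts, -0.092 with the length trend removed, -0.093 with that and the replicate block, -0.0049 without untreated replicate 1 and -0.0062 without CCCP replicate 2. With 2 libraries per group, differences of the size seen here were not resolved.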
